A study of Mus musculus with 4 samples.

Results

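The 10 genes described here are well-known transcriptional targets of p53, followed in small intestinal epithelial cells of irradiated mice. They were taken by name from the gene table: Cdkn1a, Mdm2, Ccng1, Zmat3, Trp53inp1, Phlda3, Eda2r, Bax, Bbc3 and Pmaip1, 10 of the 32285 gene rows. All 10 had UMIs (unique molecular identifiers, 1 per captured mRNA molecule) in every mouse. The cells came from 3 VilCreIfnlr1fl/fl mice (KO1 to KO3 below) and 3 WT mice (WT1 to WT3). In the KO mice the interferon-lambda receptor gene Ifnlr1 is deleted by Cre driven from the Villin promoter, which is active in the intestinal epithelium. Both genotypes received 11 Gy of gamma rays from a caesium source with the head, thorax and upper limbs shielded, and no unirradiated sample was analysed here, so no value below measures the effect of radiation itself. The series text places cell isolation 96 h after the dose, and the extraction protocol says 3 days. Live EPCAM-positive, CD45-negative cells were sorted, every mouse had a separate hashtag, and all cells of 1 genotype went into 1 single-cell library, so genotype and library cannot be told apart.

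p53 is a transcription factor that is stabilised when DNA is broken. Its targets split into genes that stop the cell cycle, such as the CDK inhibitor p21 (Cdkn1a), genes that damp p53 itself, such as the ubiquitin ligase Mdm2, and genes that open the mitochondrial route to apoptosis, such as Bax, Bbc3 (PUMA) and Pmaip1 (NOXA). In the small intestine, p53 is known to be induced by radiation above all in the dividing cells of the crypt, and Bbc3 is known for its part in the death of crypt cells there.

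p53 binds a pair of 10-letter half-sites. The p53 consensus half-site, matched at every letter, was searched on both strands in the 300-base RefSeq promoter windows (GRCm38.p6, from 250 bases before to 50 after a gene's start). The table held 10 windows of 7 targets (Bbc3 and Cdkn1a have more than 1). Of these 10 windows 4, of 4 targets, held at least 1 half-site, as did 8.36% of all 32851 windows. Those 4 stretches are shown because they carry the letters that p53 recognises in genes whose levels differed between the cell groups below; half-sites are in capitals and the rest is in lower case. The Cdkn1a stretch lies at chr17:29090881-29090962 (+), Bax at chr7:45467065-45467124 (−), Mdm2 at chr10:117710910-117710969 (−) and Ccng1 at chr11:40755437-40755496 (−).
Cdkn1a: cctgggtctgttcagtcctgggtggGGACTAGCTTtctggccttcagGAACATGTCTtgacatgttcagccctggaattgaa
Bax: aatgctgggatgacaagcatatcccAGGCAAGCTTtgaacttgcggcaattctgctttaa
Mdm2: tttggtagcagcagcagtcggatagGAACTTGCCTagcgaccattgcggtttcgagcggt
Ccng1: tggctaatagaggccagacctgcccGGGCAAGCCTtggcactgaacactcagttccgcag
Relative to the start that its window was placed on, the half-sites began at -73 and -51 bases in Cdkn1a, -201 in Bax, -186 in Mdm2 and -185 in Ccng1. Cdkn1a alone of the 4 held 2, and the 10 letters after its second half-site matched the consensus at 9 positions. A match is only a description of the letters. The other Cdkn1a window, placed on a second start (chr17:29093519-29093818, +), was without a half-site. Phlda3, Bbc3 and Eda2r also had windows without a half-site, and Zmat3, Trp53inp1 and Pmaip1 were named only.

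After filtering (at least 1000 UMIs, at least 500 genes, at most 25% mitochondrial UMIs) 4028 of 7370 KO and 5563 of 10453 WT barcodes were kept, and 9 of them occurred in both libraries. Hashtags gave 1030, 995 and 843 cells for KO1 to KO3 and 845, 866 and 1062 for WT1 to WT3, with summed UMIs of 11142876 to 35999518 per mouse. Mouse 2 of each genotype stood apart: the median was 20575 UMIs per cell in KO2 and 12657 in WT2, against 8527 to 11623 in the other 4 mice. Reads of Ifnlr1 do not check the genotypes, since they come from the 3′ end and the deleted exons are not given in the sources used here. They made up 26.9, 16.0 and 22.7 CPM (UMIs per 1e6 UMIs of the sum) in KO1 to KO3 and 22.6, 15.5 and 26.3 CPM in WT1 to WT3.

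Cells were placed in gates by the share of their UMIs that fell in lists of marker genes. The lists hold none of the p53 targets followed here, but other genes that p53 regulates were not looked for in them. There was a crypt gate (stem and cycling markers, at least 0.2%) and a villus gate (enterocyte markers, at least 2%). A goblet gate and a Paneth gate took at least 5% each. Whether p53 activity changes the markers themselves, such as the cycling markers, and so the gate of a cell, was not tested. Both libraries together gave 406 crypt, 6405 villus, 1337 goblet and 135 Paneth cells, 269 cells past no gate, and 185 cells set aside as enteroendocrine, tuft or immune. Of the goblet cells 572 also passed another gate, as did 88 Paneth cells. Every marker of a gate's own list exceeded 20 CPM in it in both genotypes, as did all 6 epithelial markers (among them Epcam) in every gate. Among cells with a hashtag, the crypt gate was almost confined to mouse 2. It held 2, 185 and 1 cells in KO1, KO2 and KO3, and 1, 106 and 2 in WT1, WT2 and WT3. A further 105 WT and 4 KO crypt cells had no hashtag, so their mouse is not known. An alternative, the hashtag ratio rule, takes a hashtag with at least 3 times the counts of the next. By it crypt cells numbered 2, 206 and 3 in KO1 to KO3 and 1, 118 and 21 in WT1 to WT3.

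In crypt cells of KO2 and WT2 the arrest gene Cdkn1a was low and the death effector Bax was high, relative to villus cells of the same mouse. The 1 or 2 crypt gate cells of each of the other 4 mice did not all have this order: Cdkn1a was at 550 CPM in the 2 such cells of KO1, against 255 CPM in its villus cells. Cdkn1a stood at 55.2 CPM in KO2 crypt cells (95% Poisson interval 51.4 to 59.2) against 208 CPM in KO2 villus cells. In WT2 it was 44.5 CPM (39.3 to 50.3) in crypt cells against 284 CPM in villus cells. Bax, which permeabilises the outer mitochondrial membrane, was at 135 CPM in crypt against 60.2 CPM in villus cells of KO2, and at 151 against 42.6 CPM in WT2. Pmaip1, which neutralises the survival protein Mcl1, was, like Cdkn1a, the lower in crypt cells, at 9.62 against 130 CPM in KO2 and 14.3 against 192 CPM in WT2. Mdm2 was also lower, at 28.7 against 66.8 CPM in KO2 and 29.5 against 74.5 CPM in WT2. Trp53 itself was at 112 and 126 CPM in crypt cells of KO2 and WT2, against 15.8 and 8.84 CPM in their villus cells, so Trp53 and Cdkn1a were ordered oppositely between these gates in KO2 and WT2. With 1 mouse per genotype there is no test here, and the intervals cover counting error only.

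Of the other targets, Phlda3, Ccng1, Zmat3 and Eda2r were higher in crypt than in villus cells of both KO2 and WT2, and Trp53inp1 was lower in both. Phlda3, an inhibitor of Akt signalling, was at 11.5 CPM in KO2 and 8.11 CPM in WT2 crypt cells, above its 2.00 and 2.69 CPM in their villus cells. Ccng1, encoding cyclin G1, was at 41.2 and 41.8 CPM in KO2 and WT2 crypt cells, against 32.0 and 29.995 CPM in their villus cells. Zmat3, an RNA-binding p53 target, was at 11.8 and 12.4 CPM, against 8.20 and 8.84 CPM. Trp53inp1, a stress protein that acts in autophagy and death, was at 6.10 and 3.11 CPM, against 15.5 and 12.2 CPM. Eda2r, a TNF-family receptor, was at 3.01 and 3.62 CPM, against 0.638 and 0.224 CPM. Bbc3 was at 3.23 CPM in KO2 crypt cells, against 5.01 CPM in KO2 villus cells. In WT2 it was close in both, at 6.38 CPM in crypt and 5.93 CPM in villus cells. Crypt gate cells were also split at 0.1% of UMIs in cycling markers, so cells below the cut can still hold some. Cells at or above the cut and cells below it had like levels of Cdkn1a. These were 56.8 and 50.7 CPM in KO2 (125 and 60 cells), and 45.6 and 42.1 CPM in WT2 (64 and 42 cells). Cells of at least 3000 UMIs were also thinned to 3000 UMIs each, and shallower cells were left out of the thinned shares. After thinning 12.1% of KO2 and 12.6% of WT2 crypt cells held a UMI of Cdkn1a, against 37.4% and 54.6% of their villus cells. Without thinning the crypt cells of KO2 and WT2 had medians of 68700 and 52738.5 UMIs, and their villus cells 10879 and 9908.

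**Figure D1:**
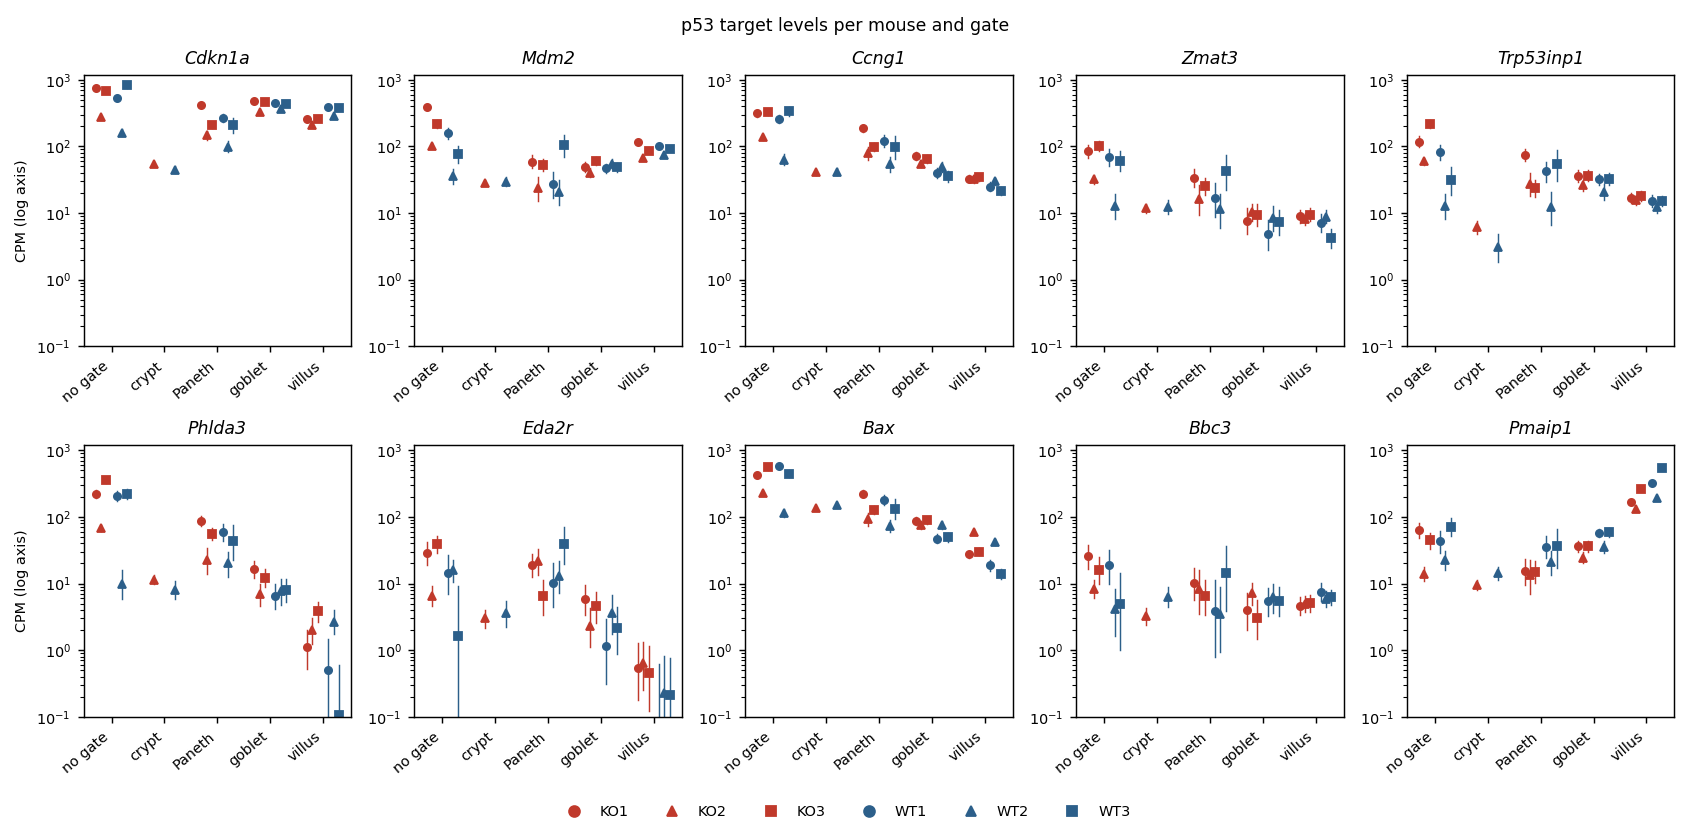
CPM of the 10 targets (log axis) in cells past no gate and in the crypt, Paneth, goblet and villus gates, 1 point per mouse with KO left of WT, for sums of at least 4 cells; bars are 95% Poisson intervals and a bar without a point is a count of 0. At these gate cuts Cdkn1a lies at 538 to 832 CPM in cells past no gate of mice 1 and 3, while Pmaip1 is highest in the villus gate (130 to 542 CPM).

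Cells outside the 4 gates carried much Cdkn1a, Bax and Phlda3 in mice 1 and 3 of each genotype, at levels that depended on the gate cuts. In the cells past no gate Cdkn1a was at 743 CPM in KO1 and 681 CPM in KO3, and at 538 CPM in WT1 and 832 CPM in WT3, but at 273 CPM in KO2 and 162 CPM in WT2. Bax followed, at 422 and 556 CPM in KO1 and KO3 and 584 and 446 CPM in WT1 and WT3, against 226 CPM in KO2 and 115 CPM in WT2. Phlda3 was at 222 and 359 CPM in KO1 and KO3 and 206 and 220 CPM in WT1 and WT3, whereas KO2 had 68.5 and WT2 9.92 CPM. These sums rest on 26, 92 and 33 cells in KO1 to KO3 and on 14, 41 and 14 in WT1 to WT3. In KO2 and WT2 the level was the lowest of its genotype for 9 of the 10 targets in both. With crypt and villus cuts lowered to 0.5 of their value, a setting chosen after seeing the data, 15, 39 and 22 cells were left in KO1 to KO3 and 10, 18 and 8 in WT1 to WT3. Cdkn1a was then at 715, 428 and 713 CPM in KO1 to KO3 and 380, 220 and 451 CPM in WT1 to WT3, so that in WT1 it lay below that mouse's goblet cells (449 CPM) and in WT3 close to them (427 CPM). Phlda3 was then at 246, 171 and 291 CPM in KO1 to KO3 and 111, 26.3 and 166 CPM in WT1 to WT3. With the original cuts 82.4% of the Phlda3 UMIs of WT2 came from 1 cell.

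The summed level of all 10 targets in these cells was 2419, 925 and 2565 CPM in KO1 to KO3 and 1971, 454 and 2080 CPM in WT1 to WT3. In the villus gate the same sum was 635, 528 and 705 CPM in KO1 to KO3 and 898, 653 and 1074 CPM in WT1 to WT3. The 6 targets Ccng1, Zmat3, Trp53inp1, Phlda3, Eda2r and Bax exceeded their villus level in 6 of 6 mice, and Pmaip1 in 0 of 6. Ccng1, for example, was at 314, 136 and 333 CPM in KO1 to KO3 and 257, 63.6 and 336 CPM in WT1 to WT3, above its range of 21.7 to 34.3 CPM in the villus gate. For some targets 6 of 6 rested on single cells. Eda2r in WT3 was 1 UMI. In WT2, without the cell with most UMIs of the gene, Phlda3 was at 1.82 CPM, below its 2.69 CPM in villus cells. Trp53inp1 in WT2 was at 12.8 against 12.2 CPM, and at 7.15 CPM without its top cell. Mdm2 was at 396, 102 and 217 CPM in KO1 to KO3, but at 160, 35.6 and 76.0 CPM in WT1 to WT3. Of its UMIs in KO1, 45.8% came from 1 cell.

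The cells past no gate were not alike. Those of at least 3000 UMIs were thinned to 3000 UMIs, and shallower ones were left out. A UMI of Phlda3 was then seen in 37.5%, 12.2% and 40.0% of the thinned cells in KO1 to KO3. In WT1 to WT3 it was seen in 33.3%, 0% and 41.7%. In WT2 0 of 41 cells allows a share of up to 7.32% by the limit of 3 counts, and of 8.60% by the exact 95% Clopper-Pearson interval. In the villus gate the same share was 0% to 1.31% over the 6 mice. Without thinning, over all cells past no gate, the shares were 50.0%, 33.7% and 48.5% in KO1 to KO3. They were 50.0%, 7.32% and 57.1% in WT1 to WT3, and the medians of the 6 mice were 19372 to 57406 UMIs. A further 6 genes that were picked after their values were seen stood higher in the same cells than in the villus gate in mice 1 and 3 of each genotype: Ly6a, Anxa1, Clu, Areg, Krt7 and F3. WT2 went the other way for Clu, and its Areg was close in both, at 48.4 CPM against 44.7 CPM in its villus cells. Ly6a was at 326, 118 and 1187 CPM in KO1 to KO3 and 873, 42.6 and 881 CPM in WT1 to WT3, and Clu at 624.8, 315 and 789 CPM in KO1 to KO3 and 430, 1.75 and 466 CPM in WT1 to WT3. In the villus gate Ly6a was at 0.962 to 3.83 CPM over the 6 mice, and Clu at 171, 102 and 169 CPM in KO1 to KO3 and 248, 44.4 and 93.7 CPM in WT1 to WT3. Stem and cycling markers (the crypt list) made up 0.0474% to 0.0759% of UMIs there, immune markers 0.00106% to 0.0174%, villus markers 0.224% to 1.07% and goblet markers 0.232% to 0.460%. Markers of enterocytes of the villus base made up 0.646%, 0.817% and 0.762% in KO1 to KO3 and 0.638%, 0.825% and 1.17% in WT1 to WT3, against 0.131%, 0.841% and 0.203% in villus gate cells of KO1 to KO3 and 0.127%, 0.570% and 0.151% in those of WT1 to WT3. They were the higher in the cells past no gate in all mice but KO2. The part of villus, villus base or goblet markers in these levels was not tested.

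**Figure D2:**
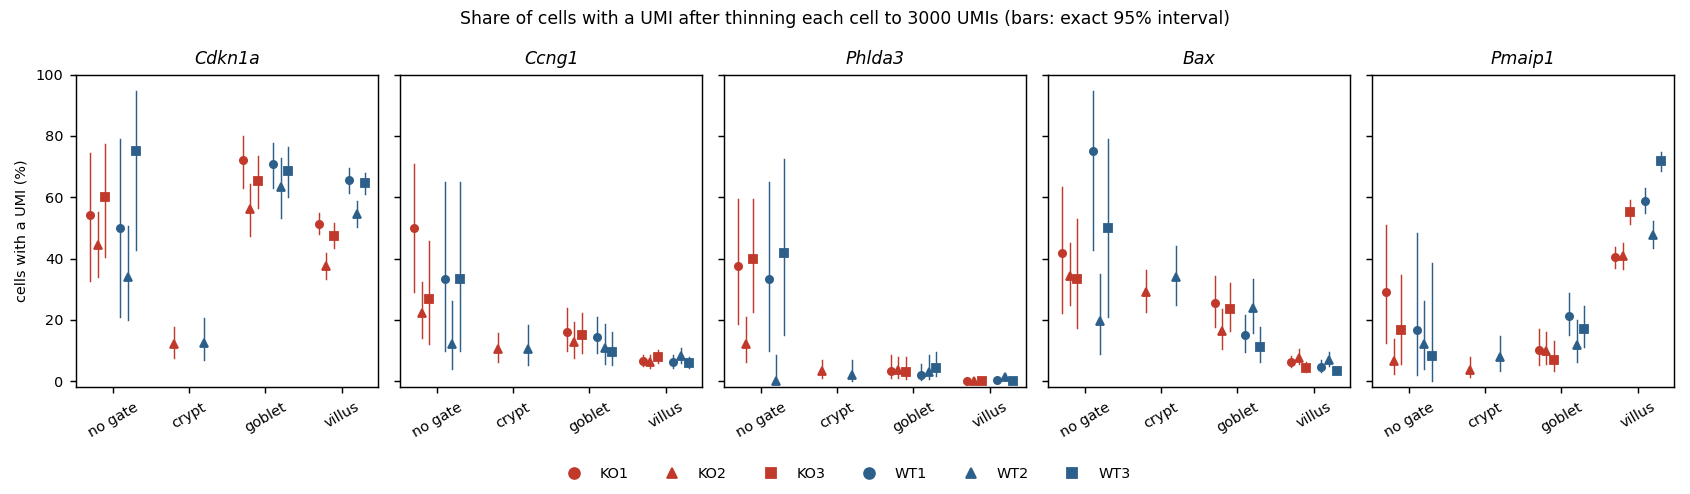
Share of cells with at least 1 UMI of 5 targets after thinning to 3000 UMIs, by gate and mouse (KO left of WT). Cells with fewer than 3000 UMIs were left out. Bars are exact 95% Clopper-Pearson intervals, which are wide where few cells remain. Phlda3 was found in 33.3% to 41.7% of cells past no gate in mice 1 and 3 of each genotype and in at most 1.31% of villus cells.

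Goblet cells, which secrete mucus, carried more of most targets than villus cells of the same mouse. Cdkn1a was at 489, 325 and 471 CPM in goblet cells of KO1 to KO3, against 255, 208 and 258 CPM in their villus cells. In WT1 to WT3 it was at 449, 366 and 427 CPM in goblet cells and 393, 284 and 379 CPM in villus cells. The goblet value was the higher in 6 of 6 mice. Bax was at 87.1, 74.5 and 89.4 CPM in goblet cells of KO1 to KO3 against 27.3, 60.2 and 30.1 CPM in villus cells, and at 47.3, 75.9 and 49.7 CPM in goblet cells of WT1 to WT3 against 18.7, 42.6 and 14.1 CPM in villus cells. Pmaip1 was lower in goblet cells in 6 of 6 mice, at 24.6 to 36.4 CPM in KO and 35.2 to 58.7 CPM in WT goblet cells, against 130 to 262 CPM in KO and 192 to 542 CPM in WT villus cells.

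In the test of goblet against villus cells (edgeR quasi-likelihood test on summed UMIs, the mouse as a block, Benjamini-Hochberg adjustment over 9883 genes) 7 of the 9 targets tested passed an adjusted p of 0.05. Of all genes 71.2% passed, 34% higher and 37.2% lower, so 7 of 9 is close to that share. Of these, 5 rose. On the log2 scale, with SE, Phlda3 rose by 2.80 ± 0.50. Bax rose by 1.45 ± 0.25 (adjusted p = 0.000483), Trp53inp1 1.19 ± 0.14 (adjusted p = 4.48e-05), Ccng1 1.04 ± 0.12 (adjusted p = 3.84e-05) and Cdkn1a 0.74 ± 0.14 (adjusted p = 0.00103). Pmaip1, at -2.40 ± 0.14 (adjusted p = 2.6e-07), and Mdm2, at -0.60 ± 0.10 (adjusted p = 0.000541), fell. Phlda3 passed the count filter through its goblet sums, of 21 to 45 UMIs per mouse. Its villus sums held 10, 22 and 34 UMIs in KO1 to KO3 and 3, 24 and 1 in WT1 to WT3. Its p-value is therefore not given as support, though Phlda3 is counted among the 7 and the 5. Zmat3 and Bbc3 did not pass, with 0.27 ± 0.19 and 0.07 ± 0.18. Eda2r did not pass the count filter, at 1.14 to 5.88 CPM in goblet cells and 0 to 0.638 CPM in villus cells. With no filter, and without WT1, Eda2r entered the test on counts that came mainly from goblet cells, so its p-values there are not given as support. Without KO2 and WT2 the same 7 targets passed beside 72.8% of genes, and Phlda3 reached 3.46. Without the mouse as a block the same 7 passed beside 63.4% of genes. Goblet markers took about 40.7% of KO and 39.4% of WT goblet UMIs, which lowers the plain CPM of every other gene there; the test rescales for composition (TMM).

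Of 76 other genes of the pathway (p53 and its regulators, further targets, the Bcl-2 family, caspases and CDK inhibitors), 56 were tested in that comparison, 18 rose and 19 fell. Over all genes of this test 34% rose and 37.2% fell, so 18 and 19 of 56 are close to those shares. The median log2 fold change of the 56 was 0.13, against -0.05 over all genes. Among the Bcl-2 family and executioners 2 rose and 9 fell of 15, and among the CDK inhibitors 2 rose and 0 fell of 4. The phosphatase gene Ptp4a3 (4.14 ± 0.43), the bypass polymerase gene Polk (3.89 ± 0.21), the damage kinase gene Atm (2.95 ± 0.29), the exonuclease gene Aen (2.19 ± 0.28) and the kinase gene Plk2 (2.15 ± 0.16) rose. Xiap, encoding an inhibitor of caspases, fell by 2.21 ± 0.10 and Mdm4, a partner of Mdm2, by 1.33 ± 0.15. Trp53 did not pass, at 0.11 ± 0.19.

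Paneth cells, which secrete defensins at the crypt base, numbered 4 to 18 per mouse, too few for a test. Bax was at 225, 92.1 and 127 CPM in KO1 to KO3 and 182, 74.0 and 133 CPM in WT1 to WT3, above the villus level in 6 of 6 mice. Ccng1, Zmat3, Phlda3 and Eda2r were above it in 6 of 6 too, and Pmaip1 below it in 6 of 6. Cdkn1a was at 422, 146 and 212 CPM in KO1 to KO3 and 271, 99.2 and 209 CPM in WT1 to WT3, above its villus level only in KO1.

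Within the villus gate, the targets were ordered along the villus axis. Cells were ranked in each mouse by their share of villus tip markers, split into 3 equal parts, and the part with the highest share (tip-ward) was set against the part with the lowest (base-ward). Bax was lower in the tip-ward part in 6 of 6 mice, at 11.4 to 15.2 CPM in KO and 10.1 to 15.4 CPM in WT cells, against 42.1 to 85.9 CPM in KO and 17.7 to 59.2 CPM in WT cells of the base-ward part. Ccng1 was lower there in 6 of 6 too, with ratios of tip-ward to base-ward level from 0.334 to 0.478, as was Zmat3 (0.473 to 0.751). Phlda3 had 0 to 3 UMIs in the tip-ward part of a mouse and 1 to 34 in the base-ward part, too few to order it. Pmaip1 was higher in the tip-ward part in 6 of 6 mice, at 253, 308 and 420 CPM in KO1 to KO3 and 413, 420 and 654 CPM in WT1 to WT3, against base-ward values of 103, 39.3 and 140 CPM in KO1 to KO3 and 243, 76.5 and 396 CPM in WT1 to WT3. Mdm2 and Trp53inp1 were also higher in 6 of 6, with ratios of 1.44 to 4.39 and 1.13 to 4.76. Cdkn1a was higher in the tip-ward part in 4 of 6 mice (ratios 0.962 to 1.92) and Bbc3 in 5 of 6. No test was run on these parts. Their median depth differed most in KO2, at 9130 UMIs in the tip-ward and 34249 in the base-ward part, and the part of depth in the ratios was not tested.

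**Figure D3:**
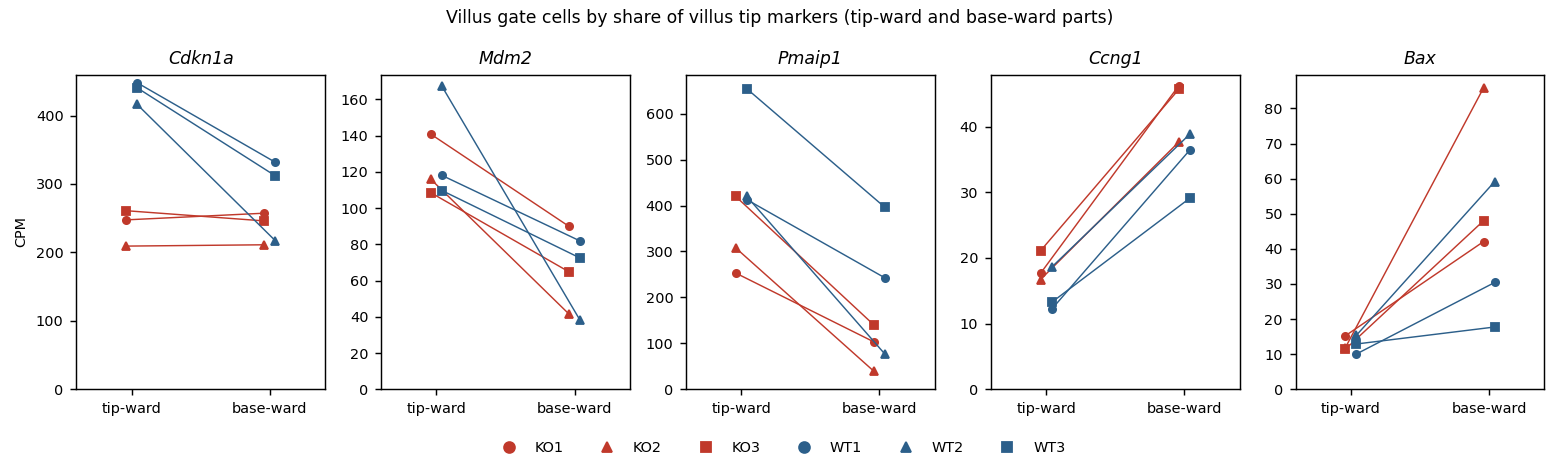
CPM of 5 targets in villus gate cells of the tip-ward and base-ward part of each mouse's ranking by villus tip markers; each line joins the values of 1 mouse. Mdm2 and Pmaip1 are higher, and Ccng1 and Bax lower, in the tip-ward part of all 6 mice, while Cdkn1a lies between 209 and 261 CPM in the tip-ward part of KO mice and between 416 and 448 CPM in that of WT mice.

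Whether loss of the interferon-lambda receptor in the epithelium moved these targets was asked by comparing KO with WT mice. In villus cells Cdkn1a was at 255, 208 and 258 CPM in KO1 to KO3, against 393, 284 and 379 CPM in WT1 to WT3, so the genotypes did not overlap. Pmaip1 was at 170, 130 and 262 CPM in KO1 to KO3 and 329, 192 and 542 CPM in WT1 to WT3, which overlap, though in each pair of equal hashtag number the KO mouse was lower. Bax was at 27.3, 60.2 and 30.1 CPM in KO1 to KO3 and 18.7, 42.6 and 14.1 CPM in WT1 to WT3, with the KO mouse higher in each pair. Bbc3 was lower without overlap, at 4.61, 5.01 and 5.09 CPM in KO1 to KO3 against 7.53, 5.93 and 6.31 CPM in WT1 to WT3. Ccng1 was higher without overlap, at 32.7, 32.0 and 34.3 CPM in KO1 to KO3 against 24.9, 29.995 and 21.7 CPM in WT1 to WT3, as was Trp53inp1, at 15.5 to 18.1 CPM in KO and 12.2 to 15.4 CPM in WT. Of all 10609 genes tested, 3.9% were lower and 10.5% higher in KO without overlap, beside 2 and 2 of the 9 targets.

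None of these villus differences passed in the edgeR test without a block, where 0% of the 10609 genes and 0 of 9 targets were called; 665 genes and 2 targets had an unadjusted p under 0.05. By DESeq2, 89 genes and 0 targets passed. The log2 fold change of Cdkn1a was -0.72 ± 0.24 (adjusted p = 0.701). With the hashtag number as a block 15.7% of genes were called (8.82% higher, 6.9% lower), and 3 of 9 targets with them. Cdkn1a then fell by 0.70 ± 0.13 (adjusted p = 0.00608, range over its alternatives 0.00608 to 0.9998) and Pmaip1 by 1.02 ± 0.15 (adjusted p = 0.00259, range 0.00259 to 0.9998), while Bax rose by 0.55 ± 0.14 (adjusted p = 0.0225, range 0.0225 to 0.9998). Without KO2 and WT2, and without a block, 7.24% of genes were called, with Cdkn1a at -0.80 ± 0.11 (adjusted p = 0.00997) and Pmaip1 at -1.23 ± 0.28 (adjusted p = 0.0412) among them. The equal-numbered mice carried the same hashtag reagent, and the labels tie them by nothing else.

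Villus tip markers also differed in share between the mice, and their shares overlapped between the genotypes. They made up 3.86%, 2.14% and 3.52% of villus gate UMIs in KO1 to KO3 and 5.07%, 2.35% and 5.12% in WT1 to WT3, and their part in the genotype differences was not tested. Within the tip-ward part, Cdkn1a was at 248, 209 and 261 CPM in KO1 to KO3 and 448, 416 and 441 CPM in WT1 to WT3. In the base-ward part it was at 257, 211 and 246 CPM in KO1 to KO3 and 332, 217 and 312 CPM in WT1 to WT3. Villus cells of at least 3000 UMIs were also compared after thinning to 3000 UMIs. The share with a Cdkn1a UMI was 51.4%, 37.4% and 47.5% in KO1 to KO3 and 65.6%, 54.6% and 64.5% in WT1 to WT3. In these cells the genotypes did not overlap at equal depth either.

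**Figure D4:**
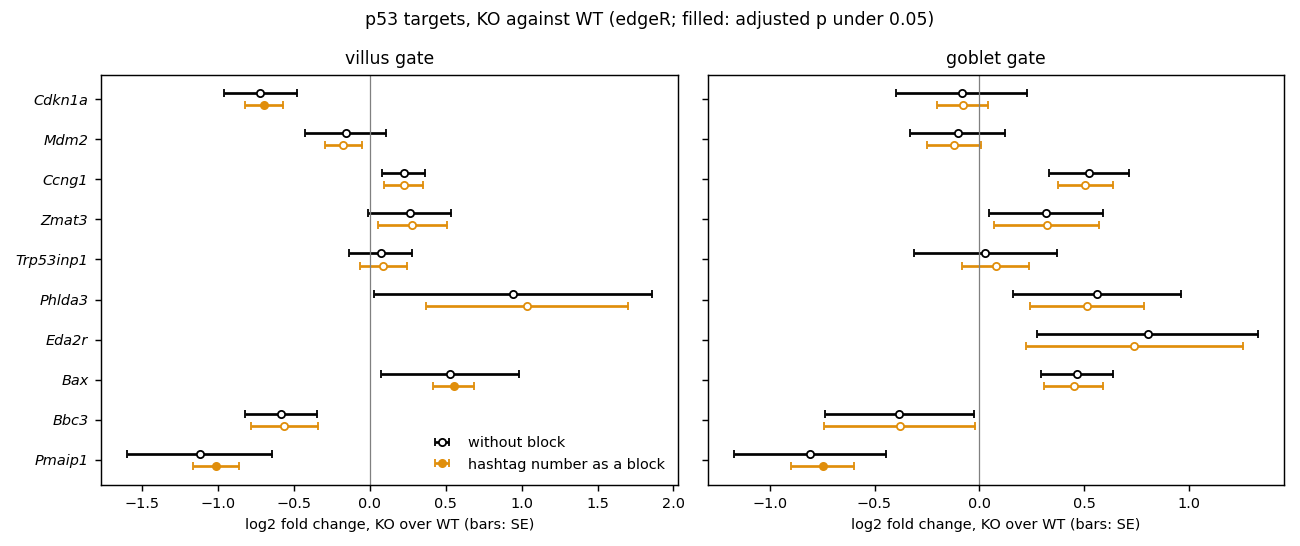
Log2 fold change of each target, KO over WT, in villus (left) and goblet (right) gate cells from edgeR, without a block and with the hashtag number as a block; bars are SE and filled points passed an adjusted p of 0.05. Without a block no target passed, and with it Cdkn1a, Bax and Pmaip1 passed in the villus and Pmaip1 in the goblet gate.

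Of the 76 other pathway genes 59 were tested in villus cells. With the block 3 rose and 4 fell (edgeR, adjusted p under 0.05), in a fit that called 15.7% of all genes. The anti-apoptotic gene Bcl2l1 (-0.61 ± 0.12), the nuclear body gene Pml (-0.71 ± 0.13), the kinase gene Plk3 (-0.71 ± 0.19) and the mTOR inhibitor gene Ddit4 (-0.71 ± 0.21) fell. The caspase gene Casp6 (0.69 ± 0.16), Triap1 (0.63 ± 0.18) and Mdm4 (0.41 ± 0.11) rose. The list's median was 0.02, against 0.05 over all genes, and Trp53 stood at 0.28 ± 0.22.

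In goblet cells Cdkn1a overlapped between genotypes (KO 489, 325 and 471 CPM, WT 449, 366 and 427 CPM; log2 fold change -0.08 ± 0.31). Whether this differs from the villus effect was not tested. Ccng1 was higher in KO goblet cells without overlap, at 72.1, 55.2 and 64.3 CPM in KO1 to KO3 against 39.6, 49.9 and 35.8 CPM in WT1 to WT3; 4.13% of the 9042 genes tested were higher and 4.37% lower in KO without overlap. Its log2 fold change was 0.52 ± 0.19 (adjusted p = 0.968). In this gate edgeR called 0.0442% of genes and 0 of 10 targets without a block, with an unadjusted p under 0.05 for 2 targets; DESeq2 called none of the 10. With the block 2.85% of genes were called and 1 of 10 targets, Pmaip1, which fell by 0.75 ± 0.15 (adjusted p = 0.0239, range over its alternatives 0.0032 to 0.9999). Without KO2 and WT2 5.73% of genes and 3 of 10 targets were called: Ccng1 at 0.64 ± 0.14, Bax at 0.65 ± 0.12 and Pmaip1 at -0.89 ± 0.13.

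Over all cells of a mouse 0% of 12944 genes were called without a block (232 at an unadjusted p under 0.05, 36 by DESeq2), and 0 of 10 targets by either tool or at an unadjusted p under 0.05. With the block 1.17% of genes were called and 1 of 10 targets, Pmaip1, which fell by 1.16 ± 0.16 (adjusted p = 0.0289, range over its alternatives 0.0289 to 0.99998). Ccng1, Zmat3 and Bax were higher in KO without overlap, as were 5.01% of genes, and 0 targets were lower without overlap, as were 1.66% of genes. By the main hashtag calls KO2 and WT2 were the only mice with more than 2 crypt cells, so the genotypes could not be tested in that gate.

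The genes whose levels were most like those of Cdkn1a over the 24 sums per mouse and gate were Sqstm1 (Pearson r of log2 (CPM + 1) 0.960), B3gnt3 (0.956), Itgb4 (0.946), Slc25a24 (0.943) and Klf6 (0.936), out of 5573 genes at a mean of at least 20 CPM. Mdm2 ranked 170 with 0.852, and Bax had 0.534. The sums share libraries and mice and several hold few cells. Over the 14 sums of at least 20 cells Slc25a24 had 0.968 (rank 10), B3gnt3 0.926 (rank 59), Klf6 0.907 (rank 81), Sqstm1 0.902 (rank 85) and Itgb4 0.900 (rank 88). Mdm2 then had 0.537 (rank 633), Bax -0.52 and Trp53inp1 0.915 (rank 74), against 0.017 for Trp53inp1 over the 24 sums. The order of likeness to Cdkn1a thus differed between the 24 and the 14 sums.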

How the data were processed

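Per the submitters' processing notes, Cell Ranger 7.0.1, Seurat 4.1.0 and the mm10 build were used, with no role given for each. The deposited values are raw UMI counts of genes and hashtags per barcode, with no normalization by the authors. The targets, gene lists and tests were chosen with earlier results of these data known. Each barcode was given a hashtag by the HTODemux function of Seurat 5.3.0 at a quantile of 0.99, before filtering. Hashtag doublets (305 KO, 549 WT) were left out, and barcodes without a hashtag (855 KO, 2241 WT) entered no comparison between mice. Doublets of 1 mouse were not looked for. A second experiment named in the labels was not analysed here.

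Counts were summed per mouse and gate. Sums of at least 20 cells per mouse were tested with edgeR 4.0.16 (TMM, filterByExpr, quasi-likelihood) in R 4.3.3, with Benjamini-Hochberg adjustment over all genes at 0.05. DESeq2 1.42.0 was an alternative. The crypt and Paneth tests fixed in the design could not be run with the main hashtag calls, because too few mice had 20 such cells. Deviations of equal-numbered KO and WT mice correlated in villus cells at 0.614, 0.836 and 0.515 and over all cells at 0.416, 0.854 and 0.638. In goblet cells they correlated at 0.442, 0.686 and 0.318. The numbers were used as a block in an alternative fit, and these correlations come from the same counts that the fit tests. KO1 and WT3 correlated at 0.638 in villus cells and over all cells, no less than KO1 and WT1, and at 0.396 in goblet cells. The correlations thus set only mouse 2 apart. The labels tie a number only to a hashtag reagent. Cells of a genotype shared a pool, so p-values compare mice within 2 pools. The text names all 10 targets, pathway genes that passed (at most 6 by size) with Trp53 and Mdm4, and the 5 genes most like Cdkn1a. Poisson and Clopper-Pearson intervals (95%) cover counting error only, and a count of 0 allows 3 counts. On simulated counts for the villus comparison (10478 genes, 200 changed) the test recovered 75% of 2-fold and 100% of 4-fold changes. The simulation gave all genes the same fixed dispersion, did not set mouse 2 apart, and changed only genes with enough counts. Its shares therefore do not give the power of the test in the real mice.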

Additional observations from a re-analysis of the deposited data

How the results depend on the processing

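Of 482 fold changes of single targets refitted under other settings, 449 kept their direction and their side of the threshold, 10 passed it newly and 23 changed sign. The goblet over villus calls held for the same 7 targets without the mouse as a block (6270 genes called) and without KO2 and WT2. Phlda3, 1 of the 7, passed the count filter through its goblet sums. Genes called between KO and WT numbered 36, 89 and 41 with DESeq2 size factors over all cells, in the villus gate and in the goblet gate. With the replicate block (hashtag number) they were 152, 1668 and 258, with 1, 3 and 1 targets. Without WT2 and KO2 they were 9, 763 and 506, with 0, 2 and 3 targets. No filter on low counts gave 37 in the villus and 34 in the goblet gate, the hashtag ratio rule 16 in the villus gate, the stricter gate 13 in the villus and 87 in the goblet gate, and at most 15% mitochondrial UMIs 0 in the goblet gate. Leaving out 1 mouse gave 0 to 24 genes in the goblet gate, with 24 without WT2. The cause of these shifts was not tested.

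Under the hashtag ratio rule, KO over WT, Mdm2 over all cells was -0.0067 and Trp53inp1 in the goblet gate -0.014. At most 15% mitochondrial UMIs gave -0.35 for Trp53inp1 in the villus and -0.026 in the goblet gate. The stricter goblet gate gave -0.025 for it. Without WT2 and KO2 it was -0.018 in the villus and -0.062 in the goblet gate. Leaving out 1 mouse, Mdm2 ranged from -0.30 to 0.31 over all cells, -0.41 to 0.010 in the villus and -0.28 to 0.090 in the goblet gate. Trp53inp1 ranged from -0.039 to 0.59, -0.090 to 0.17 and -0.28 to 0.23 in the same 3, and Cdkn1a in the goblet gate from -0.30 to 0.13. Bbc3, goblet over villus, was -0.063 with no filter, -0.019 without WT2 and KO2, and -0.030 to 0.16 without 1 mouse.

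For cells past no gate, 2 settings were chosen after seeing the data. Crypt and villus cuts lowered to 0.5 of their value left 28 of 60 levels within counting error, and Cdkn1a in WT1 was then below that mouse's goblet level (380 against 449 CPM). Leaving out the cell with most UMIs of a gene kept 32 of 60. Phlda3 in WT2 then fell to 1.82 CPM and Mdm2 in KO1 to 232 CPM. The genotype tests in the crypt and Paneth gates, and that of crypt minus villus, gave no value in any setting. Crypt against villus and Paneth against villus could be fitted only under the hashtag ratio rule, and those fits were not used. Depth limits Eda2r and Bbc3, which stayed under 10 CPM in villus and goblet cells of every mouse.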

Other observations

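The few crypt gate cells outside mouse 2 differed widely. The 2 such cells of KO1 had 550 CPM of Cdkn1a, 648 CPM of Bax and 373 CPM of Phlda3, and the 1 of KO3, with 7157 UMIs, had 0 CPM of all 3. The 1 of WT1 had 101, 417 and 152 CPM of the same genes, and the 2 of WT3 had 377, 754 and 310 CPM. Cdkn1a in villus cells was at 255 CPM in KO1, 258 CPM in KO3, 393 CPM in WT1 and 379 CPM in WT3. These sums of 1 or 2 cells allow no comparison. Mice 2 of both genotypes had the lowest level of their genotype over all cells for 7 of the 10 targets.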
